A study of Sus scrofa with 5 samples.

Results

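The miR-29 family is a small group of related miRNAs with ssc-miR-29a, ssc-miR-29b and ssc-miR-29c as its members in the pig. They were chosen by name from the table of reported miRNAs. The family made up 3 of 411 mature names and 4 of 493 rows, since ssc-miR-29b is listed under both of its precursors. Small RNA was sequenced from 5 libraries, which were BL_1 and BL_2 of day 7 blastocysts, and 1 library each of ES-like cells, PEBs and PFFs. BLs were pools of embryos from parthenogenetic activation, in which an oocyte develops without sperm. ES-like cells were a cell line derived from blastocysts and grown with stem cell factor and basic fibroblast growth factor on mouse embryonic fibroblast feeders. PEBs were aggregates of the same ES-like cells after hanging-drop culture without these cytokines, and PFFs were fibroblasts cultured from fetuses about a month after insemination. Each library outside BLs stands alone, so a difference between ES-like cells, PEBs and PFFs has no replicate check.

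A miRNA pairs through its seed, a short stretch near its start, with sites in messenger RNAs and lowers their output. Members of the miR-29 family share their seed and are best known for holding down collagens, elastin and other matrix genes, and their loss accompanies fibrosis in heart, lung and liver. The family is also known to target the de novo DNA methyltransferases DNMT3A and DNMT3B. The hairpins lie in a pair of clusters. In the RefSeq annotation of the pig (Sscrofa11.1), MIR29B-1 neighbours MIR29A, next to KLF14, and MIR29B-2 neighbours MIR29C, next to CD46. The mature ssc-miR-29b can come from either cluster, whereas ssc-miR-29a and ssc-miR-29c each come from one.

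ssc-miR-29a was nearly absent from blastocysts and plentiful in every cultured library. It had 1 read in BL_1 and 48 in BL_2, against 51696 in PFFs, 50355 in PEBs and 22216 in ES-like cells. Per 1000000 reported mature miRNA reads (RPM), these were 8.79 and 17.3 in the BL libraries and 1910, 3177 and 3486 in the cultured ones. The highest blastocyst level was below the lowest cultured level by 111-fold, so the groups did not overlap. The exact 95% Poisson intervals were 0.223 to 49.0 RPM in BL_1 and 12.7 to 22.9 RPM in BL_2, against 1893 to 1926 RPM in PFFs, 3149 to 3205 RPM in PEBs and 3441 to 3532 RPM in ES-like cells. Such intervals cover counting error only and leave out variation between libraries. They can also be too narrow, because PCR reads are not independent molecules.

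ssc-miR-29b, the member listed under a precursor of each cluster, had the same order of cultured libraries in RPM, at lower levels. Its summed reads were 0 in BL_1 and 22 in BL_2, against 2532 in PFFs, 2022 in PEBs and 1040 in ES-like cells. In RPM, it stood at 7.91 in BL_2 against 93.5 in PFFs, 128 in PEBs and 163 in ES-like cells. The absence of a read in BL_1 allowed up to 26.4 RPM (a limit of 3 counts), which is below all cultured levels. The rows of its precursors were almost equal, with 11 reads at each in BL_2, 1265 and 1267 in PFFs, 1010 and 1012 in PEBs and 520 at each in ES-like cells. The files do not show whether each read was counted at both precursors, so the summed level of ssc-miR-29b may count the same molecules again.

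ssc-miR-29c was scarce throughout. It had 1 read in BL_1 and 0 in BL_2, against 107 in PFFs, 100 in PEBs and 32 in ES-like cells. These were 3.95 RPM (3.24 to 4.78) in PFFs, 6.31 (5.13 to 7.67) in PEBs and 5.02 (3.43 to 7.09) in ES-like cells. In BL_2 the limit of 3 counts was 1.08 RPM, below the 3 cultured levels. In BL_1 the single read corresponded to 8.79 RPM with an interval of 0.223 to 49.0, which includes the cultured levels, so no difference of ssc-miR-29c from BL_1 was detectable at this depth.

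**Figure D1:**
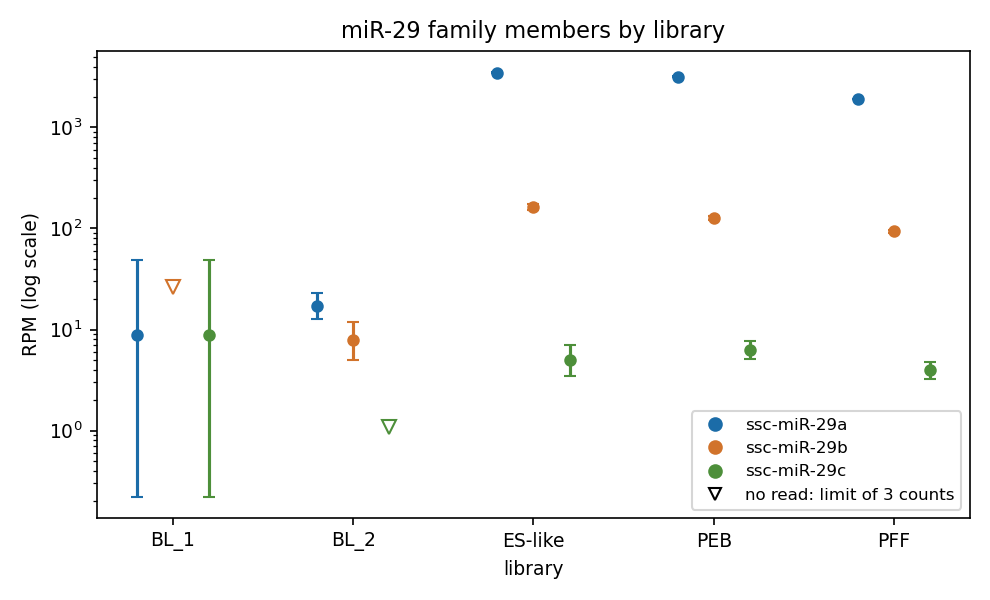
Levels of the 3 members of the miR-29 family in RPM (log scale, vertical) in each library (horizontal), with exact 95% Poisson intervals for counting error and open triangles at the limit of 3 counts where no read was found. ssc-miR-29a lies at 1910 RPM or more in the cultured libraries and at 17.3 RPM or less in BL_1 and BL_2, while ssc-miR-29c stays below 10 RPM in every library.

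The libraries differed widely in depth, from a total of 113743 reported reads for BL_1 to 27071931 for PFFs, with 2782150 in BL_2, 15849954 in PEBs and 6372500 in ES-like cells. The paper reports that miRNAs were a smaller share of all small RNA in both BL libraries than in each cultured library. RPM is taken over reported miRNA reads alone and does not show that difference. The study's own list of read totals gives the totals of ES-like cells and PFFs the other way round. Libraries were assigned here by the library names in the sample titles, which match the column names, and every value of ES-like cells and PFFs and the grouping by pluripotency rest on that assignment. The comparison of blastocysts with cultured libraries does not, since both stand on the cultured side. The fibroblast marker ssc-miR-21 took 52.3% of the reads in the column assigned to PFFs, and ssc-miR-106a had 3246 RPM in the column assigned to ES-like cells and 14.1 RPM in that of PFFs. ssc-miR-29a at a cultured level would have been detectable at the depth of either BL library. At its level in PFFs, the lowest of the cultured libraries, BL_1 would have held 217 reads and BL_2 5313, where 1 and 48 were found. For ssc-miR-29b the same reckoning gave 10.6 reads in BL_1, where 0 were found, and 260 in BL_2, where 22 were found. These are summed over its precursor rows and may count the same molecules again. For ssc-miR-29c the reckoning gave 0.450 reads in BL_1, where 1 was found, and 11.0 in BL_2, where 0 were found.

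The ratio of each cultured library to BL_2, the deeper of the blastocyst libraries, showed how far the members differed. For ssc-miR-29a it was 111 in PFFs (exact 95% counting interval 83.5 to 150), 184 in PEBs (139 to 250) and 202 in ES-like cells (152 to 274). For ssc-miR-29b it was 11.8 in PFFs (7.79 to 18.9), 16.1 in PEBs (10.6 to 25.8) and 20.6 in ES-like cells (13.6 to 33.1). Those intervals use summed precursor rows and are too narrow if the rows count the same molecules. ssc-miR-29c, with no read in BL_2, was at least 3.67-fold higher in PFFs, at least 5.85-fold in PEBs and at least 4.66-fold in ES-like cells, set against 3 counts in BL_2. For ssc-miR-29a the single read of BL_1 gave 217 times for PFFs, with an interval of 39.0 to 8579. The interval of the ssc-miR-29a ratio to BL_2 lay above that of ssc-miR-29b in each of the 3 cultured libraries.

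The blastocyst libraries were compared with the 3 cultured libraries by edgeR's quasi-likelihood test over the 279 miRNAs that exceeded 5 reads in 3 or more libraries. With 2 BL libraries, a miRNA present in blastocysts alone could not enter, while 44 of the 279, ssc-miR-29c among them, entered through the 3 cultured libraries alone. The labels separate embryos from cell lines and an embryoid body, and the spread on the cultured side includes differences between cell types. PEBs were made from the ES-like cells, so a pair of the 3 cultured libraries shares a cell line, whereas the test treats the libraries as independent. Nothing in the labels says whether the BL pools were separate collections, so the p-values measure only the spread between these libraries. Of all miRNAs tested, 11.1% were called at a Benjamini-Hochberg adjusted p under 0.05 and 4.66% were called higher in cultured libraries, and ssc-miR-29a was the only member of the family among them. The split was 13 higher and 18 lower in cultured libraries with TMM, and it turned with the scaling or tool, to 32 and 23 with DESeq2 size factors, 35 and 22 with library size only and 65 and 35 with DESeq2. The level of ssc-miR-29a was higher in 3 of 3 cultured libraries, with a log2 fold change of 7.04 ± 1.13 (standard error), and its edgeR adjusted p was 0.0120. ssc-miR-29b did not pass, with a log2 fold change of 3.79 ± 1.19 and an edgeR adjusted p of 0.0742. Without BL_2 its log2 fold change was 13.45, set against no read in BL_1 and so no bound, and without PFFs it passed at 3.49 (edgeR adjusted p = 0.00726). ssc-miR-29c had 2.10 ± 2.18, with an edgeR adjusted p of 0.468.

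The median log2 fold change over all 279 miRNAs was 0.84 in this fit with TMM factors, 1.13 with DESeq2 size factors and 1.42 with library size only. Relative to that median, ssc-miR-29a stood 6.20 higher and ssc-miR-29b 2.94 higher on the log2 scale with TMM. The edgeR adjusted p of ssc-miR-29b was 0.0406 with DESeq2 size factors and 0.0319 with library size only, under the threshold in both. The call of ssc-miR-29a was lost when some single libraries were left out. Its edgeR adjusted p was 0.0906 without BL_1, 0.119 without BL_2 and 0.0597 without PEBs, with log2 fold changes of 6.54, 8.38 and 7.44. The summed family level was 21.4 ± 5.36 RPM in BLs (SD, n = 2) and 2991 ± 869 RPM in cultured libraries (SD, n = 3). A two-sided exact permutation test of these sums gave p = 0.2. That is the smallest value this form of the test can give with 2 against 3 libraries, so it could not pass 0.05 and decides nothing.

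Many miRNAs differed between blastocysts and cultured libraries, and ssc-miR-29a was among those with the widest gap. In RPM, 28.7% of the 279 miRNAs tested (80) were higher in each cultured library than in both BL libraries when a BL library without a read was set at its limit of 3 counts. With such libraries taken as 0 it was 41.9% (117 miRNAs), of which 24 had no read in either BL library. In the opposite direction, 21.5% (60 miRNAs) were lower in each cultured library than in both BL libraries. ssc-miR-29a and ssc-miR-29b were among the 80, and ssc-miR-29c was not. By the fold from the highest BL level or limit to the lowest cultured level, ssc-miR-29a stood at place 5 of the 80. With BL libraries without a read taken as 0, it stood at place 8 of the 93 miRNAs that had a read in a BL library. Against the limit of BL_1, ssc-miR-29b was at least 3.55-fold higher from its summed rows but at least 1.68-fold higher when only the largest precursor row of each miRNA was counted.

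**Figure D2:**
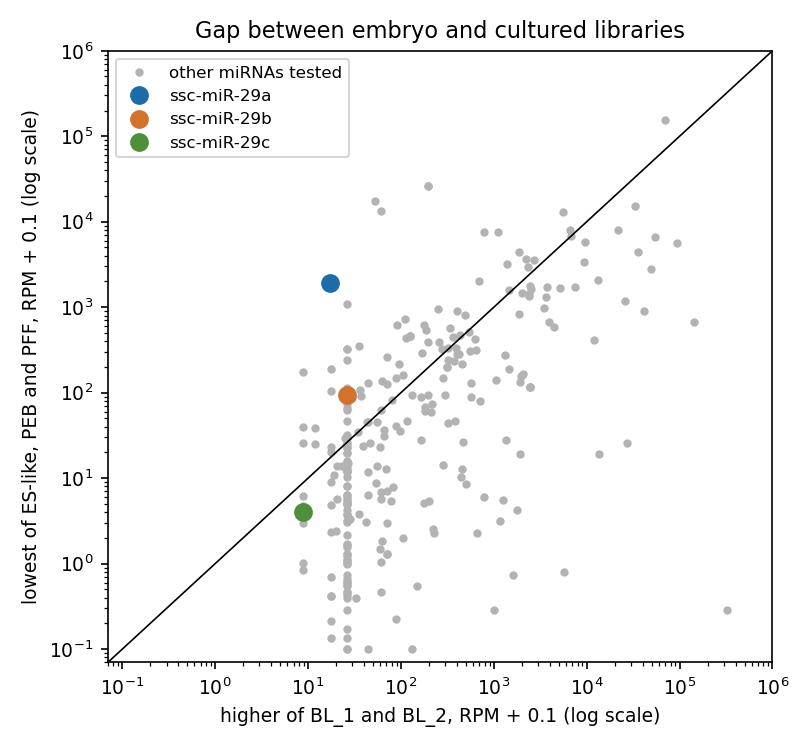
Each point is 1 of the 279 miRNAs tested, with the higher of its BL_1 and BL_2 levels, a library without a read being set at its limit of 3 counts (horizontal) and the lowest of its levels in ES-like cells, PEBs and PFFs (vertical), both in RPM plus 0.1 on log scales, and a line of equality. In RPM ssc-miR-29a lies 111-fold above the line and ssc-miR-29b, from its summed rows, 3.55-fold above it against the limit of BL_1, while ssc-miR-29c lies below the line through its single read in BL_1.

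Measures taken within a library do not depend on the scale between libraries. By reads, ssc-miR-29a ranked 189th of the 275 miRNAs detected in BL_2, but 32nd of 315 in PFFs, 48th of 306 in PEBs and 44th of 309 in ES-like cells. In BL_1 it shared its single read with 24 other reported miRNAs. ssc-miR-29b moved less, from place 215 in BL_2 to 118 in PFFs, 143 in PEBs and 138 in ES-like cells. ssc-miR-29c stayed low at place 227 in PFFs, 239 in PEBs and 254 in ES-like cells.

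The mix of members was close in the cultured libraries and different in BL_2. ssc-miR-29a held 95.1% of the family's reads in PFFs (95% Clopper-Pearson interval 94.96 to 95.32%), 96.0% in PEBs (95.8 to 96.1%) and 95.4% in ES-like cells (95.1 to 95.7%). In BL_2 it held 68.6% of 70 reads (56.4 to 79.1%). ssc-miR-29b made up the rest of BL_2 with 31.4% (20.9 to 43.6%), against 4.66% in PFFs (4.48 to 4.84%), 3.85% in PEBs (3.69 to 4.02%) and 4.47% in ES-like cells (4.20 to 4.74%). When only the larger precursor row of ssc-miR-29b was counted, its share was 18.6% in BL_2 (9.69 to 30.9%), 2.39% in PFFs, 1.97% in PEBs and 2.28% in ES-like cells. The share was thus higher in BL_2 than in every cultured library under both ways of counting, beyond counting error, but it comes from a single blastocyst library with few reads. The family had 2 reads in BL_1, too few to give its mix. ssc-miR-29c held 0.197% in PFFs (0.161 to 0.238%), 0.191% in PEBs (0.155 to 0.232%) and 0.137% in ES-like cells (0.0940 to 0.194%), and these intervals overlapped. In BL_2, 0 of 70 reads allowed a share of up to 5.13%, the upper Clopper-Pearson bound.

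Between the cultured libraries the members differed by less than 2-fold in RPM, and the order of ssc-miR-29a depended on the scale. ssc-miR-29c was past 2-fold on another scale, at 2.33-fold higher in PEBs than in ES-like cells with predicted reads in the total, where RPM gave 1.26-fold. In RPM, the level of ssc-miR-29a in PEBs was 0.911 times that in ES-like cells, the level in PFFs was 0.548 times that in ES-like cells, and PFFs stood at 0.601 times the level of PEBs. None of the 3 pairs reached 2-fold. Over all miRNAs tested, 23.7% were more than 2-fold lower in PEBs than in ES-like cells and 20.8% more than 2-fold higher. Against PFFs, the share of miRNAs more than 2-fold lower in PFFs was 53% with ES-like cells and 45.5% with PEBs, and the share more than 2-fold higher was 16.1% and 14%. These counts moved with the scale. With TMM, 90 miRNAs were more than 2-fold higher and 90 more than 2-fold lower in PFFs than in ES-like cells, where RPM gave 45 and 148, and against PEBs they were 81 and 92, where RPM gave 39 and 127. With predicted reads in the total, 109 were higher and 16 lower in PEBs than in ES-like cells, where RPM gave 58 and 66. In RPM, PFFs were lower than ES-like cells for most miRNAs, with a median log2 ratio of PFFs to ES-like cells of -1.15, while ssc-miR-21 alone took 52.3% of the reads of PFFs. The log2 ratio of ssc-miR-29a was -0.87, above that median. In RPM, ssc-miR-29b had a log2 ratio of PFFs to ES-like cells of -0.80, and ssc-miR-29c had -0.35 with a counting interval of -0.92 to 0.22. These directions also depended on the scale. The ratios of ssc-miR-29b and ssc-miR-29c were 0.29 and 0.75 with TMM and 0.21 and 0.67 with DESeq2 size factors. With predicted reads in the total they were 0.41 and 0.87, and without the most abundant miRNAs -0.23 and 0.22.

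With TMM, the levels of ssc-miR-29a were 2750 in PFFs, 2448 in PEBs and 2349 in ES-like cells per 1000000, and the order was the reverse of that in RPM. With DESeq2 size factors they were 2758, 2307 and 2489. When the reads of predicted loci outside miRBase were added to the total, they were 1905, 2531 and 1498, because ES-like cells had 8458132 such reads and PFFs 64480. Without ssc-miR-371-5p, ssc-miR-148a-3p and ssc-miR-21, the most abundant miRNAs of the libraries, they were 4134, 4227 and 5090. No order of the cultured libraries held across these scales, and no pair reached 2-fold in ssc-miR-29a under any of the 5. The range of ssc-miR-29a over the cultured libraries on log2(RPM + 10) was 0.87, against a median range of 1.37 over all miRNAs tested, and with TMM it was 0.23 against 1.36. By contrast, the gap to blastocysts stayed between 87.1-fold with TMM and 144-fold without the most abundant miRNAs.

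**Figure D3:**
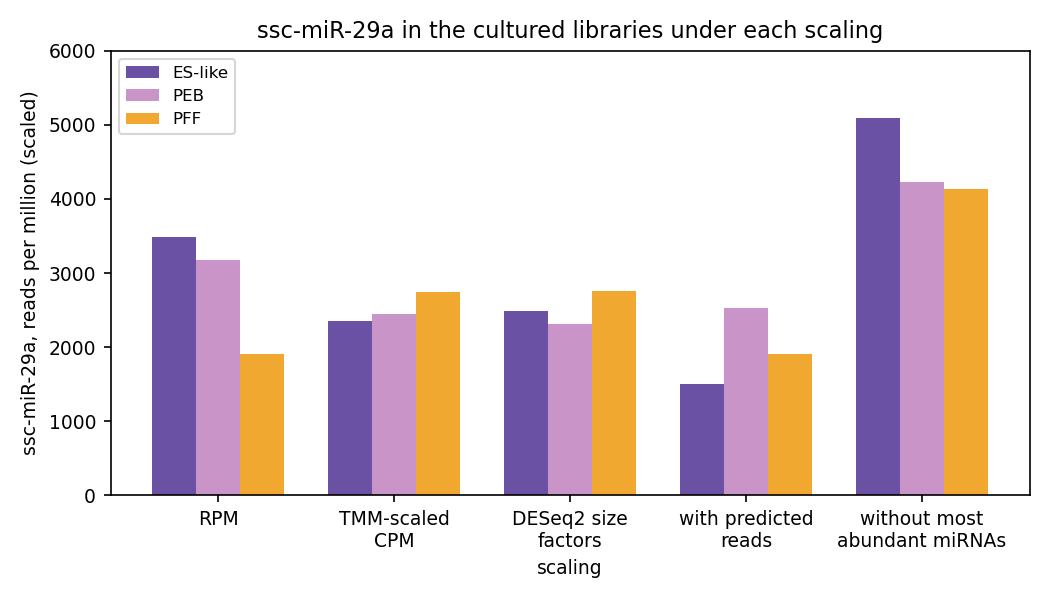
Level of ssc-miR-29a in ES-like cells, PEBs and PFFs (bars, 1 library each, reads per 1000000) under 5 ways of scaling the libraries (horizontal). ES-like cells are highest in RPM at 3486, PFFs are highest with TMM at 2750 and PEBs are highest at 2531 when predicted loci are counted in the total.

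The study also set pluripotent cells (BLs and ES-like cells) against differentiated cells (PEBs and PFFs). In that grouping the pluripotent side joined the lowest and the highest RPM levels of ssc-miR-29a, 8.79 in BL_1 and 3486 in ES-like cells, so the groups overlapped. By edgeR's quasi-likelihood test, 0% of the 279 miRNAs had an adjusted p under 0.05, 7.53% (21 miRNAs) had an unadjusted p under 0.05, and DESeq2 called 14. The log2 fold change toward differentiated cells was 1.71 ± 1.93 (standard error) for ssc-miR-29a, 1.45 ± 1.59 for ssc-miR-29b and 1.01 ± 1.76 for ssc-miR-29c. Their edgeR adjusted p was 0.798, 0.794 and 0.938. Without the library of ES-like cells, which leaves BLs against PEBs and PFFs, ssc-miR-29a had a log2 fold change of 7.58 (edgeR adjusted p = 0.0168).

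The miRNAs whose profile over the 5 libraries lay nearest to ssc-miR-29a were ssc-miR-214, ssc-miR-152, ssc-miR-199a-3p, ssc-miR-199b-3p and, as the fifth, ssc-miR-199a-5p. Likeness was the Euclidean distance between log2(RPM + 10) profiles after subtraction of their mean, and it is a description over 5 libraries that share their depths. The distances were 1.88, 2.12, 2.18, 2.18 and 2.57, against a median of 7.06 over the miRNAs tested. ssc-miR-214, which shares a transcript with miR-199 in mesenchymal cells, had 0 and 2 reads in the BL libraries and 13968, 12268 and 2051 in PFFs, PEBs and ES-like cells. ssc-miR-152, a relative of miR-148, had 3 and 67 reads in the BL libraries and 58704, 24987 and 7027 in the same cultured order. Both were at or near 0 in blastocysts and present in all cultured libraries, like ssc-miR-29a, which follows from how they were selected. ssc-miR-214 had also entered the test through the cultured libraries alone. ssc-miR-199a-5p had 6 and 74 reads in BL_1 and BL_2 and from 110832 in ES-like cells to 639861 in PFFs. The counts of the 3p arms of ssc-miR-199a and ssc-miR-199b were nearly equal in every library, with 1421725 and 1421755 reads in PFFs, so the same reads may stand behind both names. Of the family's own members, ssc-miR-29b lay at a distance of 3.96 from ssc-miR-29a and ssc-miR-29c at 7.54.

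**Figure D4:**
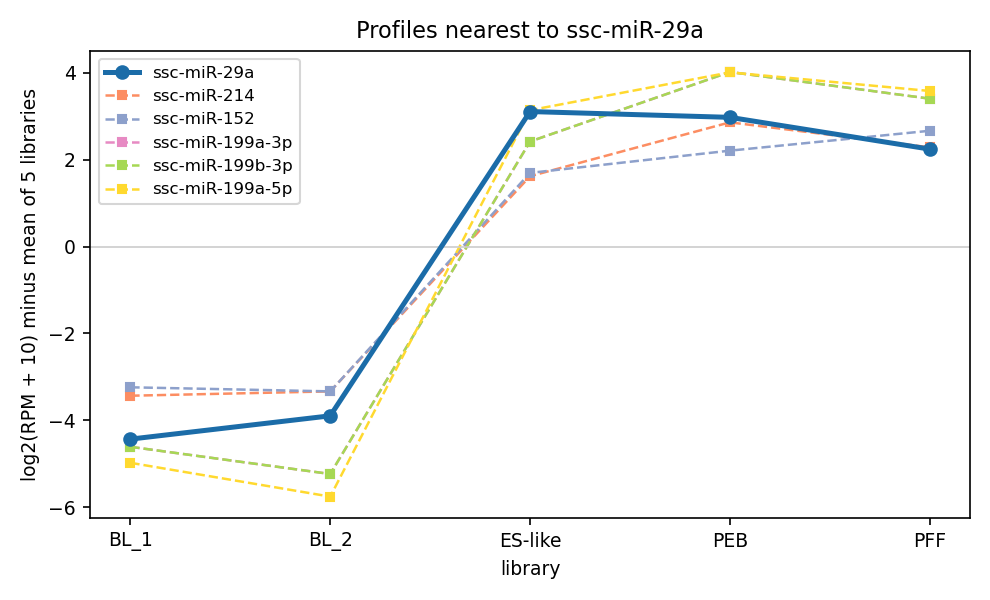
Profiles of ssc-miR-29a (thick line) and the 5 miRNAs nearest to it over the libraries (horizontal), as log2(RPM + 10) minus the mean of the 5 libraries (vertical). The lines of ssc-miR-199a-3p and ssc-miR-199b-3p coincide, and all 6 miRNAs are below their mean in BL_1 and BL_2 and above it in ES-like cells, PEBs and PFFs.

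Fibroblast and mesenchymal markers shared the rise of ssc-miR-29a from blastocysts to cultured libraries, but not its order among the cultured ones in RPM. Among these, ES-like cells had the lowest RPM of every marker and the highest of ssc-miR-29a. All 8 of the markers (ssc-miR-21, ssc-miR-143-3p, ssc-miR-145-5p, both arms of ssc-miR-199a and ssc-miR-199b, and ssc-miR-214) were higher in every cultured library than in both BL libraries, against 28.7% of all miRNAs tested with BL libraries without a read at their limit, and 6 of the 8 were called higher by edgeR, against 4.66%. The 3p arms of ssc-miR-199a and ssc-miR-199b, which may be the same reads, count among the 8 and among the 6. ssc-miR-145-5p and ssc-miR-214, also in both counts, had entered the test through the cultured libraries alone, where they are high. Their lack of overlap and their calls therefore add nothing to the counts of 8 and 6. The markers were also chosen with earlier results of these data known, so both counts are only a description. As for ssc-miR-29a, the calls were lost without BL_1, without BL_2 or without PEBs, where 0 of the 8 were called and 0 of all miRNAs were called higher, while 63, 63 and 85 of all miRNAs had an unadjusted edgeR p under 0.05 in either direction. Their summed level was 39035 RPM in BL_1 and 70321 RPM in BL_2, most of it ssc-miR-21, against 757529 RPM in PFFs, 400909 RPM in PEBs and 239380 RPM in ES-like cells. ssc-miR-145-5p, ssc-miR-199b-5p and ssc-miR-214 were at 0 in BL_1, and no marker was at 0 in another library. ES-like cells thus carried these markers too. They grew on mouse fibroblast feeders, and a feeder miRNA of the same sequence would be counted with the pig's, so the share of feeder RNA in their ssc-miR-29a was not tested. Reads of ssc-miR-29a per read of each marker were highest in ES-like cells and lowest in PFFs for all 8 markers. Per read of ssc-miR-214 there were 3.70 reads of ssc-miR-29a in PFFs, 4.10 in PEBs and 10.8 in ES-like cells. Per read of ssc-miR-145-5p, a miRNA of smooth muscle and fibroblasts, there were 0.709, 9.70 and 10.9.

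The markers of embryos and pluripotent cells took other paths across the libraries. ssc-miR-371-5p had 324635 and 296148 RPM in the BL libraries but 30.9 in ES-like cells, whereas ssc-miR-363, ssc-miR-20b and ssc-miR-106a, of the miR-106a-363 cluster, were highest in ES-like cells. The log2 fold changes of these cluster members toward cultured libraries were 4.78, 4.49 and 5.35, the direction of ssc-miR-29a, and edgeR called none of them. With DESeq2, and with edgeR without PFFs, 3 of the 4 markers were called higher and 1 lower. ssc-miR-106a had 26.4 and 15.5 RPM in the BL libraries, 14.1 in PFFs, 874 in PEBs and 3246 in ES-like cells. Only 3 and 43 reads stood behind the BL levels, and its level in PFFs lay within the counting interval of BL_2, 11.2 to 20.8 RPM. ssc-miR-122, the liver marker, had 1767 and 837 RPM in the BL libraries, 4.14 in PFFs, 54096 in PEBs and 101004 in ES-like cells (edgeR adjusted p = 0.221). Its part in the result of ssc-miR-29a was not tested. Skeletal muscle markers summed to at most 2445 RPM in any library and blood cell markers to at most 84.5 RPM.

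Other miRNAs associated with matrix and fibrosis did not all share the pattern. Of a list of 12, 10 were in the table and were tested, and 4 of the 10 were called higher in cultured libraries by edgeR, with none called lower and a median log2 fold change of 1.44 against 0.84 over all miRNAs tested, of which 4.66% were called higher. Without BL_1, BL_2 or PEBs, 0 of the 10 were called. Without PFFs, 4 of the 10 were called higher and 1 lower. With all 5 libraries, the 4 were ssc-miR-143-3p, ssc-miR-145-5p, ssc-miR-199a-5p and ssc-miR-214, which are mesenchymal markers as well. ssc-miR-145-5p and ssc-miR-214 had entered the test through the cultured libraries alone. The list was chosen with earlier results of these data known, so its count of calls is only a description. Among miRNAs that, like miR-29, are known to restrain matrix genes, ssc-miR-30c-5p showed a log2 fold change of 0.06 ± 0.79 (standard error, edgeR adjusted p = 0.969) and ssc-miR-26a had 0.11 ± 0.78 (standard error, edgeR adjusted p = 0.925). ssc-miR-133a-3p, a muscle miRNA that targets connective tissue growth factor, had 176 RPM in BL_1 and 450 RPM in BL_2 against 12.6, 26.6 and 119 RPM in ES-like cells, PEBs and PFFs (edgeR adjusted p = 0.198). The counting interval of its 20 reads in BL_1, 107 to 272 RPM, included the level of PFFs, and both BL libraries lay above all cultured libraries under 3 of the 5 scalings but not with TMM or with predicted reads in the total.

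miR-148 and miR-152, which target the maintenance methyltransferase DNMT1, were set beside miR-29 as miRNAs of DNA methylation. All 3 of the list were tested, and 1 was called, against 4.66% called higher over all miRNAs. It was not called without BL_1, BL_2 or PEBs. This list, too, was chosen with earlier results of these data known. ssc-miR-152 was higher in cultured libraries by a log2 fold change of 5.77 ± 1.19 (standard error), with an edgeR adjusted p of 0.0215. ssc-miR-148b-3p had 1.65 (standard error 1.00, edgeR adjusted p = 0.253). ssc-miR-148a-3p had 22155 and 32734 RPM in the BL libraries, 15316 in PFFs, 59744 in PEBs and 160140 in ES-like cells (log2 fold change 0.74 ± 1.03, edgeR adjusted p = 0.604). PFFs lay below both blastocyst libraries in RPM and under 3 of the 5 scalings in all, but above BL_1 with TMM and with predicted reads in the total.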

How the data were processed

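Small RNA reads of 5 libraries were analysed. The authors trimmed adapters with Cutadapt after discarding reads that were short or lacked an adapter. Alignment was by Bowtie, and miRDeep2 assigned reads to miRBase entries. The submitters' processing notes name cutadapt 1.10, Bowtie 1.1.1, SAMtools 1.2, HTSeq 0.6.1p1 and the build Sscrofa10.2. The deposited values are raw counts per pair of mature miRNA and precursor. The deposited table of predicted loci served only for an alternative total, where the larger of 2 joined counts was used.

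Counts were summed over precursor rows and divided by the library total of reported reads (RPM). The miRNAs that exceeded 5 reads in 3 or more libraries were tested with edgeR 4.0.16 (TMM, quasi-likelihood, Benjamini-Hochberg adjustment over all of them, threshold 0.05) in R 4.3.3. DESeq2 1.42.0, other scalings, no filter, the largest precursor row and the omission of each library were alternatives. The limit of 3 counts for BL libraries without a read, in the count of miRNAs without overlap, was chosen after seeing the data. Standard errors of edgeR log2 fold changes were derived here, as the unshrunk log2 fold change over the square root of the test's F statistic. The log2 fold changes beside them are edgeR's own shrunken values. Ratios between single libraries have no test. Intervals for ratios between libraries are exact conditional binomial intervals, or normal intervals of the log ratio between cultured libraries. The edgeR step was tested on simulated data, and no result given here rests on that test. Named miRNAs were the members, the lists and the 5 nearest profiles. The members and lists were chosen with earlier results of these data known. Values were computed in Python 3.11.15 with scipy 1.17.1 and pandas 2.3.3. Target genes and miRNA sequences were not analysed here.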

Additional observations from a re-analysis of the deposited data

How the results depend on the processing

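ssc-miR-29a was higher in cultured libraries under all 10 alternatives, with edgeR or DESeq2 adjusted p from 9.08e-14 to 0.119, and lost its call only without BL_1, BL_2 or PEBs. ssc-miR-29b was called under 6 of 10. The log2 fold change of ssc-miR-29c ran from -0.69 without BL_2, a change of direction, to 8.88 without BL_1, where the remaining BL library has no read and the fitted value is no bound. The count of miRNAs called between embryo and cultured libraries, 31 as reported, was 55 with DESeq2 size factors, 57 with library size only, 100 with DESeq2 and 51 without a filter, and from 1 to 119 when a library was left out. Between pluripotent and differentiated libraries DESeq2 called 14 where edgeR called 0, and without a library the count ran from 0 to 15, with 15 reached without ES-like cells. The cause of these changes was not tested. The log2 ratio of ssc-miR-29a between PEBs and ES-like cells, -0.13 in RPM, was 0.060 with TMM, -0.11 with DESeq2 size factors, 0.76 with predicted reads in the total, -0.27 without the most abundant miRNAs and -0.0097 with the largest precursor row. Between PFFs and ES-like cells, -0.87 in RPM, it was 0.23, 0.15, 0.35, -0.30 and -0.95 under the same settings and -0.84 with a pseudocount of 100 RPM. Between PFFs and PEBs, -0.73 in RPM, it was 0.17, 0.26, -0.41, -0.032, -0.94 and -0.71. With the largest precursor row, which counts each read of ssc-miR-29b once at most, its share of the family was 18.6% in BL_2, 2.39% in PFFs, 1.97% in PEBs and 2.28% in ES-like cells. BL_1 limits the blastocyst values, since 3 counts there equal 26.4 RPM. No paired analysis was possible because only BLs have more than 1 library.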
